A study of Mus musculus with 8 samples.

Results

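Metallothioneins, the metal-sensing transcription factor MTF1 and 7 zinc transporters were followed in macrophages that had been derived from mouse bone marrow by culture in M-CSF, a macrophage growth factor, over 7 days. The genes were listed by name, with earlier results of these data known: Mt1, Mt2, Mtf1, Slc30a1, Slc30a4, Slc30a5, Slc30a7, Slc39a1, Slc39a7 and Slc39a10. They are 10 of 22165 genes in the deposited count table, and all 10 passed the filter on low counts, which left 11079 genes for testing. The 8 libraries of poly(A) RNA form 4 groups of 2 libraries, all from C57BL/6 mice. Nrf2-/- cells, which lack the transcription factor that drives antioxidant genes, were given 250 µM dimethyl itaconate (DI), an electrophilic itaconate ester, for 12 h or were left untreated. Wild-type cells were likewise given DI or left untreated. The knockout mice came from a commercial breeder. Age, sex and the source of the wild-type mice are not given in the sources used here, nor is whether both libraries of each group stem from different animals or cultures. The spread behind each p-value is therefore that between libraries and may be technical only.

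Zinc is kept at a very low free level in the cytosol. Metallothioneins are small cysteine-rich proteins that bind zinc and copper, transporters of the SLC30 (ZnT) family carry zinc out of the cytosol, into vesicles or out of the cell, and transporters of the SLC39 (ZIP) family carry it in. MTF1 binds DNA when cytosolic zinc rises and acts through short sites called metal response elements, with Mt1, Mt2 and Slc30a1 as its textbook targets in mouse. In macrophages, zinc movement is part of the defence against microbes.

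Mt2 and Mt1 lie side by side on the plus strand of chromosome 8 of mm10, with 5513 bases between the end of Mt2 and the start of Mt1. Because Mt1, Mt2 and Slc30a1 are the members that rose with DI in wild-type cells below, the 250 bases before their annotated starts are shown, from RefSeq (GRCm38.p6, the assembly called mm10). All are on the plus strand and read 5′ to 3′, and capitals mark every match to the core of the metal response element, TGCACNC or TGCGCNC, on either strand. Mt1 spans chr8:94178839-94179088, Mt2 spans chr8:94172368-94172617 and Slc30a1 spans chr1:191906531-191906780.
Mt1: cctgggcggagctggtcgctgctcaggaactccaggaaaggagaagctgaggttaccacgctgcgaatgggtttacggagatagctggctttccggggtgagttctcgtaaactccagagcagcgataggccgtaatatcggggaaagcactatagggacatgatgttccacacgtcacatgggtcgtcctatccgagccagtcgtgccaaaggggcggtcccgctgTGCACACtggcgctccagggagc
Mt2: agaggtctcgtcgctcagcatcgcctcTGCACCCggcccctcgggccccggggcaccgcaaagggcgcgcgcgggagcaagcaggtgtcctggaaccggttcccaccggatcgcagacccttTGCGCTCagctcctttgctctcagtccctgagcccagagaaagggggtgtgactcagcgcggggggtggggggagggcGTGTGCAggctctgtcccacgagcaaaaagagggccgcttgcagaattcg
Slc30a1: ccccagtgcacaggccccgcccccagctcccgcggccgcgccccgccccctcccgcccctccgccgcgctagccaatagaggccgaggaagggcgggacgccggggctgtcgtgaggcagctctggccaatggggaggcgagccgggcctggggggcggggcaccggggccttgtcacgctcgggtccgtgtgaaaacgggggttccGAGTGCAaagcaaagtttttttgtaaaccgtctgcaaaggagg

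The Mt2 window held 3 such cores, a number reached or passed by 1.26% of the 32851 promoters in the table. The Mt1 and Slc30a1 windows held 1 each, as did 21.4% of all promoters at least once. Of the other members, Slc30a4 held 2 and Slc30a5 held 1, and none was found before Mtf1, Slc30a7, Slc39a1, Slc39a7 or either start of Slc39a10. The core of the antioxidant response element, TGACNNNGC, to which NRF2 binds, had 1 match each before Mt2, Slc30a1 and Slc39a1, against 10.2% of all promoters. The core of the heat shock element, GAANNTTC, had 0 matches in any member's window, against 6.69% of all promoters. No 2 matches overlapped. Windows follow the RefSeq starts, and GENCODE places some starts downstream of them. For Mt1 these lie 122 and 152 bases downstream, for Mt2 both annotated starts lie 46 and 242 bases downstream, and for Slc30a1 1 lies 475 bases downstream. The bases just before those starts are outside the windows, so the counts for these 3 genes hold for the RefSeq start only. The GENCODE gene start also differs for Mtf1, at 124802104 against a window of 124802299 to 124802548. For Slc39a10, on the minus strand, it is 46892852, against windows of 46853619 to 46853868 and 46925777 to 46926026. The lack of matches before Mtf1 and Slc39a10 therefore also holds for the RefSeq starts only.

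**Figure D1:**
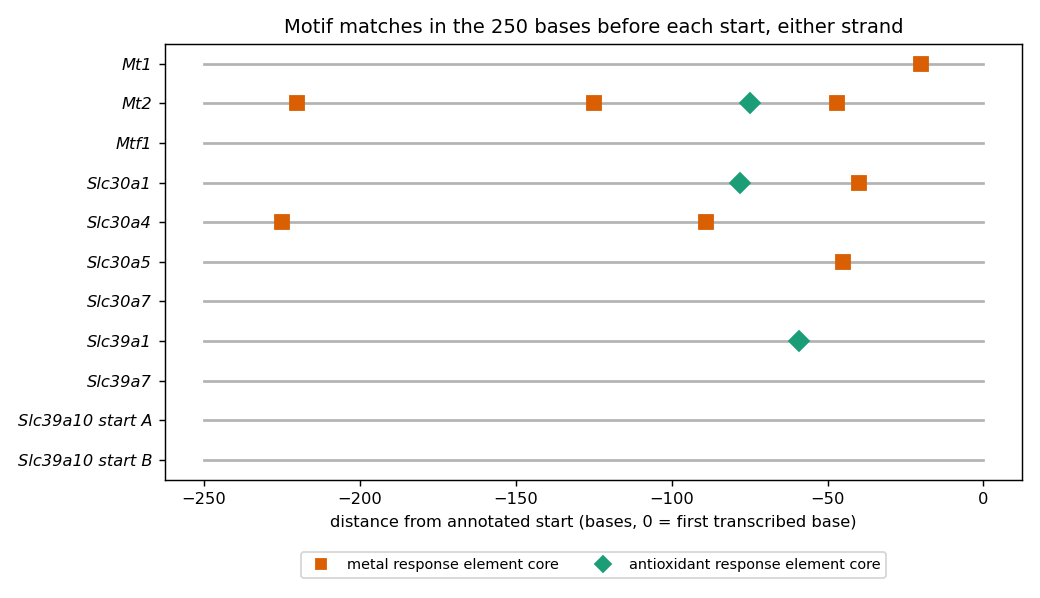
Motif matches in the 250 bases before each RefSeq start, with distance from the start in bases on the horizontal axis and 1 line per start. Squares are metal response element cores and diamonds antioxidant response element cores on either strand. Mt2 holds 3 squares, Slc30a4 holds 2, and Mtf1, Slc30a7, Slc39a7 and Slc39a10 hold no match.

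Total counts ran from 5554288 to 15680671 per library, and levels below are CPM, counts scaled to a common library total with TMM-adjusted library sizes. Changes are given on the log2 scale with the standard error of the fit. Adjusted p-values are those of edgeR's quasi-likelihood test over all 11079 genes, and a gene was called below 0.05. The reads stem from transcript 3′ ends, so CPM values are compared between groups for one gene and not between genes. The targeted gene, Nfe2l2, differed by -2.87 ± 0.34 between untreated knockout and wild-type cells (edgeR adjusted p = 0.0019). Summed macrophage markers, 10 of 10 tested, had 4930 to 8070 CPM over all libraries, and 4 of the 10 fell with DI in each genotype. In wild-type cells these were C1qa, Cd14, Fcgr1 and Itgam, where 8.68% of all genes were called lower. In knockout cells they were Adgre1, Csf1r, C1qb and Cd14, where 4% of all genes were called lower. Neutrophil markers summed to 247 to 383 CPM, and none was called with DI by edgeR or DESeq2, with 3 in wild-type and 0 in knockout cells at an unadjusted p under 0.05. Lymphocyte, dendritic, mast cell and erythroid markers summed to at most 6.53 CPM in any library, with Hbb-bs and Hbb-bt at 0 throughout. The stromal markers, 6 of 7 tested with Lum at 0, summed to 62.2 to 72.6 CPM in DI-treated and 64.6 to 71.4 CPM in untreated knockout libraries, against 187 to 203 CPM in DI-treated and 144 to 187 CPM in untreated wild-type libraries. Both DI-treated wild-type libraries stood apart in makeup: their 10 most abundant genes took 13.3% and 13.2% of counts, against 7.68% to 9.32% in the other libraries. Mitochondrial genes took 1.59% and 2.1% in replicates 1 and 2, against 1.02% to 1.54%, so in this share replicate 1 lay close to the other libraries.

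DI raised both metallothioneins and the zinc exporter gene Slc30a1 in wild-type macrophages and lowered the zinc importer gene Slc39a10. Of the 10 members 3 were called higher, against 6.51% of all genes, and 1 was called lower, against 8.68% of all genes. The median log2 change over the 10 members was 0.29, and over all genes it was -0.02. Both metallothioneins were also called higher with DI in knockout macrophages. Those calls depended on single libraries, as given below. The higher top-gene share of both DI-treated wild-type libraries and the higher mitochondrial share, mainly of replicate 2, go with the wild-type contrast. Their part in it was not tested. The rises of Mt1, Mt2 and Slc30a1 in wild-type cells passed without each library in turn.

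Mt1, one of the broadly expressed metallothioneins (chromosome 8, 94179082 to 94180327), had 224 and 250 CPM in the DI-treated wild-type libraries, against 61.1 and 42.6 CPM in the untreated ones. Both treated libraries lay far above both untreated ones. The mean was 237 ± 18.5 CPM with DI and 51.9 ± 13.0 CPM without (SD, n = 2 each), a log2 fold change of 2.19 ± 0.27, or 4.57-fold (edgeR adjusted p = 0.000263). In knockout cells Mt1 had 71.3 and 90.7 CPM with DI, against 31.1 and 44.9 CPM without. The groups again did not overlap, and the log2 fold change was 1.08 ± 0.27, or 2.12-fold (edgeR adjusted p = 0.0285). The call in knockout cells was lost without any 1 of the 4 knockout libraries, with adjusted p = 0.236 and 0.082 without untreated replicates 1 and 2 and 0.0568 and 0.099 without DI replicates 1 and 2. Across groups, DI-treated wild-type cells stood highest, DI-treated knockout cells next, and the untreated groups overlapped.

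Mt2, the other broadly expressed metallothionein (chromosome 8, 94172664 to 94173568), had 34.6 and 37.0 CPM in the DI-treated wild-type libraries, against 6.73 and 3.75 CPM in the untreated ones. Its log2 fold change was 2.79 ± 0.32, or 6.90-fold, the largest among the 10 members (edgeR adjusted p = 0.00015). DI-treated knockout libraries held 13.4 and 18.9 CPM, against 4.02 and 5.86 CPM in untreated knockout libraries. All treated knockout values were above all untreated ones, with a log2 fold change of 1.68 ± 0.33, or 3.21-fold (edgeR adjusted p = 0.0121). Without untreated knockout replicate 1 or 2 the adjusted p was 0.114 or 0.0586. The untreated values rest on few reads, 23 and 54 counts in knockout and 77 and 58 in wild-type libraries. The order of the group means was that of Mt1. Mt1 and Mt2 shared no run of 30 bases in the last 300 bases of their annotated coding transcripts, where most reads of such libraries lie. Of the 275 such runs of Mt2, 4 (1.45%) also occur in Pip5k1a, and none of Mt1 occurs in another gene. The antisense transcript Gm45774, which is not a row of the table, overlaps 749 bases of Mt2, and with the strand setting of the counting not given its reads cannot be told from those of Mt2. The remaining metallothioneins were near or at zero, with 0 to 2 counts of Mt3 per library and no count of Mt4.

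**Figure D2:**
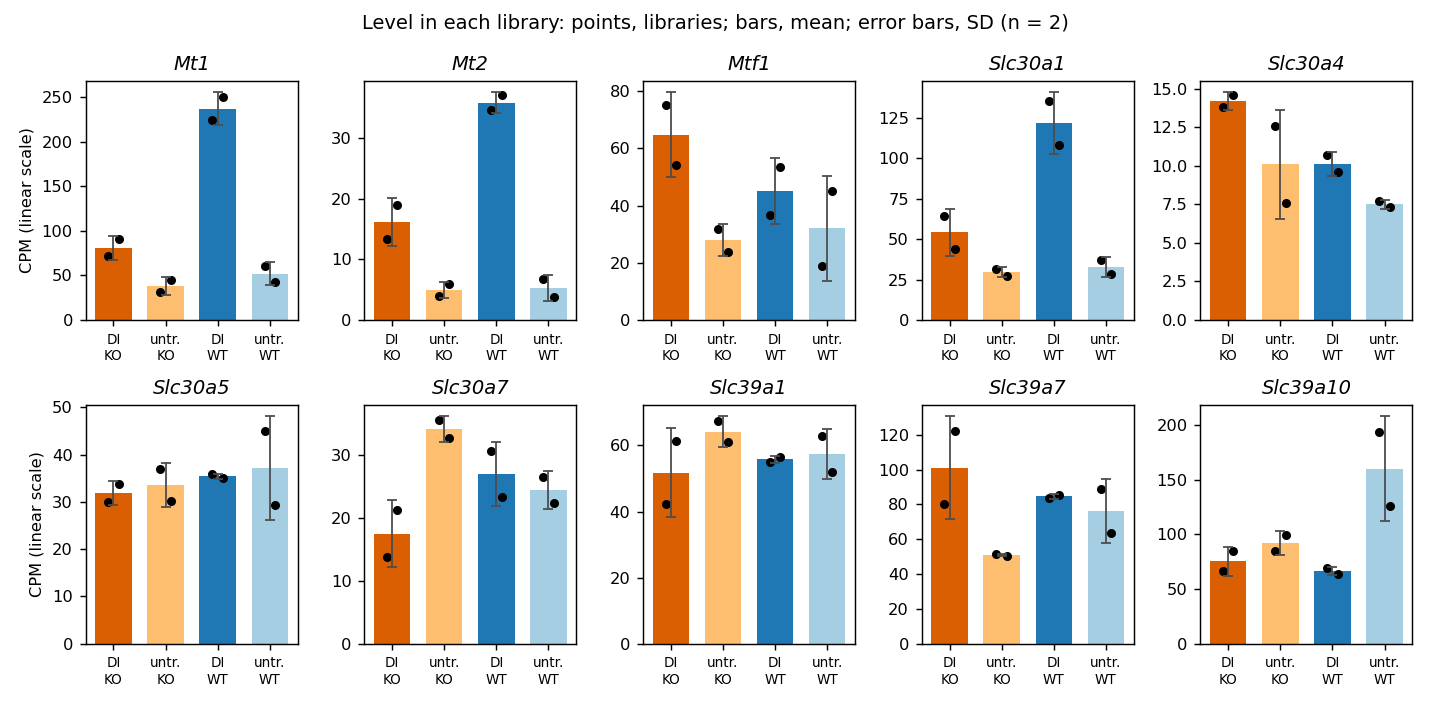
CPM (linear scale from 0) of the 10 genes in DI-treated (DI) and untreated (untr.) knockout (KO) and wild-type (WT) libraries; points are libraries, bars means and error bars SD (n = 2). Mt1, Mt2 and Slc30a1 are highest in both DI-treated wild-type libraries, and Slc39a10 is highest in both untreated wild-type libraries.

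Mtf1, the zinc-sensing transcription factor itself (chromosome 4, 124802104 to 124849800), passed in neither genotype. In DI-treated knockout libraries it had 75.2 and 54.3 CPM, against 31.8 and 23.9 CPM in untreated ones, which do not overlap. The log2 difference was 1.22 ± 0.37, and its edgeR adjusted p of 0.0584 just missed the threshold, whereas DESeq2 called it higher (adjusted p = 0.0161). It also passed in edgeR without a filter on low counts (adjusted p = 0.000238), in a fit of the 4 knockout libraries alone (0.0239) and without either untreated wild-type library (0.0281). In wild-type cells it had 36.8 and 53.3 CPM with DI and 19.0 and 45.0 CPM without, which overlap (0.49 ± 0.36, edgeR adjusted p = 0.385). The 2 untreated wild-type libraries differed more from each other than the group means did, and the difference was 1.25 without replicate 2 and 0.0031 without replicate 1 of that group, neither of which passed. The last 721 bases of Mtf1 overlap 1110065P20Rik, a protein-coding gene on the opposite strand that is in the table, and reads of both cannot be told apart unless the counting used strand.

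Among the exporters, Slc30a1 encodes ZnT1, the main zinc exporter of the plasma membrane (chromosome 1, 191906767 to 191913247). It had 135 and 108 CPM in DI-treated wild-type libraries, against 37.1 and 28.5 CPM in untreated ones, and the groups were well apart. The log2 fold change was 1.89 ± 0.26, or 3.70-fold (edgeR adjusted p = 0.000544). In knockout cells it had 64.4 and 43.8 CPM with DI, against 31.8 and 27.5 CPM without. These libraries did not overlap either, but the difference of 0.87 ± 0.26 did not pass (edgeR adjusted p = 0.0577). It passed in DESeq2 (adjusted p = 0.0301) and after removal of a trend for A-rich coding sequence, an alternative chosen with the data known (edgeR adjusted p = 0.039). Without DI-treated knockout replicate 2 it also passed, at 1.12 (edgeR adjusted p = 0.0332), as it did without a filter on low counts (0.0155).

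Slc30a7 encodes ZnT7, which loads zinc into the early secretory pathway (chromosome 3, 115938973 to 116007406). It had 13.7 and 21.2 CPM in DI-treated knockout libraries, against 35.5 and 32.6 CPM in untreated ones. Both treated values were below both untreated values, with a log2 change of -0.96 ± 0.26 (edgeR adjusted p = 0.0431). This call is fragile. The adjusted p was 0.205 and 0.156 without untreated knockout replicates 1 and 2, 0.24 without DI-treated knockout replicate 1, 0.0553 without either untreated wild-type library, and 0.0767 with the A-rich trend removed. Wild-type cells held 30.5 and 23.3 CPM with DI and 26.5 and 22.3 CPM without, which overlap (0.14 ± 0.26).

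Slc30a4, which encodes the vesicular exporter ZnT4 (chromosome 2, 122681233 to 122702663), ranged from 7.31 to 14.6 CPM over the 8 libraries. Its differences with DI were 0.51 ± 0.28 in knockout and 0.43 ± 0.28 in wild-type cells, and neither passed. Slc30a5, which encodes ZnT5 of the early secretory pathway (chromosome 13, 100802648 to 100833427), ranged from 29.3 to 44.9 CPM. Its differences with DI were -0.07 ± 0.25 in knockout and -0.07 ± 0.25 in wild-type cells, both within 1 standard error of 0.

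Among the importers, Slc39a10 encodes ZIP10, a plasma membrane importer known in mouse and zebrafish to be repressed when zinc is plentiful (chromosome 1, 46807544 to 46892852). It had 69.0 and 63.7 CPM in DI-treated wild-type libraries, against 194 and 126 CPM in untreated ones. Both untreated libraries lay above both treated ones although they differed from each other, and the log2 change was -1.27 ± 0.26, or 0.414-fold (edgeR adjusted p = 0.00614). Without untreated wild-type replicate 1 it was -0.93 (edgeR adjusted p = 0.054). Knockout cells held 66.1 and 84.4 CPM with DI, against 84.5 and 99.7 CPM without, a difference of -0.29 ± 0.25 that did not pass. The untreated knockout libraries were already below both untreated wild-type libraries, by -0.80 ± 0.25, which did not pass over all genes (edgeR adjusted p = 0.237).

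Slc39a7 encodes ZIP7, which releases zinc from the endoplasmic reticulum and Golgi into the cytosol (chromosome 17, 34028269 to 34031682). It had 80.2 and 122 CPM in DI-treated knockout libraries, against 51.3 and 50.3 CPM in untreated ones. The treated values were above the untreated values but spread widely, with a log2 change of 0.996 ± 0.26 (edgeR adjusted p = 0.0357). The call was lost without untreated knockout replicate 1 or 2 (adjusted p = 0.184 or 0.194) and without DI-treated knockout replicate 2 (0.66, adjusted p = 0.161). In wild-type cells it had 83.6 and 85.6 CPM with DI and 89.0 and 63.3 CPM without, which overlap (0.15 ± 0.26). A non-coding transcript annotated on the same strand, Gm20427, holds all of its last 300 bases and is not a row of the count table. Slc39a1, which encodes the plasma membrane importer ZIP1 (chromosome 3, 90248172 to 90253612), ranged from 42.2 to 67.5 CPM. Its differences with DI were -0.31 ± 0.24 in knockout and -0.04 ± 0.24 in wild-type cells, and the libraries overlapped in both genotypes.

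In knockout cells 3 members were called higher with DI (Mt1, Mt2 and Slc39a7), against 4.49% of all genes, and 1 was called lower (Slc30a7), against 4% of all genes. The median log2 change over the 10 members was 0.69, and over all genes it was 0.0046. None of the 3 higher calls was kept without untreated knockout replicate 1 or without replicate 2. All calls were scarce in those fits, at 29 and 37 genes higher in all, against 497 with every library. DESeq2 called 5 members higher, adding Mtf1 and Slc30a1. The shares of all genes given here are those of edgeR.

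**Figure D3:**
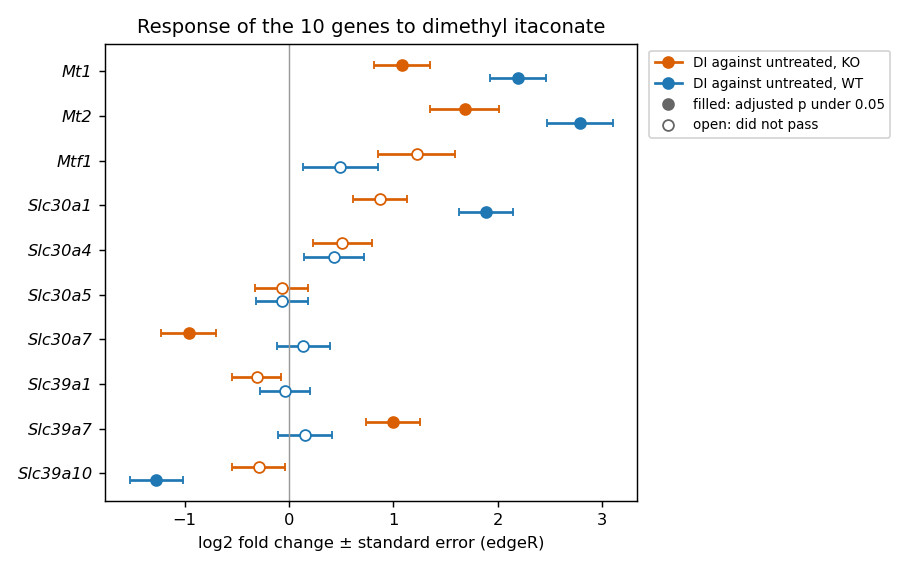
Log2 fold change ± standard error of the 10 genes with DI, in knockout (KO, upper marker of each pair) and wild-type cells (WT, lower marker); filled markers passed at an edgeR adjusted p under 0.05 and open ones did not. Mt1 and Mt2 are filled in both genotypes, Slc30a1 and Slc39a10 in wild type, and Slc30a7 and Slc39a7 in knockout.

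Whether the response to DI depended on NRF2 was tested as the difference of the responses, knockout minus wild type. For Mt1 it was -1.11 ± 0.37, for Mt2 -1.10 ± 0.45 and for Slc30a1 -1.02 ± 0.36, so the fold response in knockout cells was 0.464, 0.466 and 0.493 times that in wild type. None of the 3 passed over all genes (edgeR adjusted p = 0.087, 0.147 and 0.102). No member passed in either direction by edgeR, where 4.96% of all genes were called higher and 2.59% lower, although 6 members had an unadjusted p under 0.05, as did 2930 of all 11079 genes. DESeq2 called 1 member, Mt1 (adjusted p = 0.0471). Slc30a7 differed by -1.10 ± 0.37, Slc39a10 by 0.98 ± 0.36 and Slc39a7 by 0.84 ± 0.36, with edgeR adjusted p of 0.0866, 0.111 and 0.163. Without DI-treated knockout replicate 2 the difference for Slc30a7 was -1.45 and passed (edgeR adjusted p = 0.0377).

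Under DI, knockout cells held less Mt1, Mt2 and Slc30a1 RNA than wild-type cells. The knockout and wild-type values of these genes are those given above, and this contrast shares its DI-treated libraries with the contrasts of treatment. Mt1 was lower by -1.55 ± 0.27, or 0.342-fold (edgeR adjusted p = 0.00182). Mt2 was lower by -1.14 ± 0.30 (edgeR adjusted p = 0.0177) and Slc30a1 by -1.17 ± 0.26 (edgeR adjusted p = 0.00786). These were 3 of 10 members, against 9.74% of all genes called lower. No member was called higher by edgeR or DESeq2, against 11.4% of all genes, and none of the higher ones had an unadjusted p under 0.05. The call of Mt2 was lost without DI-treated knockout replicate 1 (-0.92, adjusted p = 0.118), without DI-treated wild-type replicate 2 (-1.11, adjusted p = 0.0652) and with the A-rich trend removed (-0.87, adjusted p = 0.0531). That of Slc30a1 was lost without DI-treated knockout replicate 2 (-0.91, adjusted p = 0.0534). Some markers of several cell types were also called in this contrast, where 9.74% of all genes were called lower and 11.4% higher. Of the stromal markers, 5 of 6 tested were called lower in DI-treated knockout cells, from -3.10 to -1.17 among those called. They were also lower between untreated genotypes, where no member was called. The median of the 6 was -1.11, edgeR called 2 of 6 (Col1a2 at -1.33 and Sparc at -1.49) and DESeq2 called 3. The Col1a2 call lay at the threshold (edgeR adjusted p rounded to 0.05). With DI in knockout cells 1 of the 6 stromal markers was called lower, against 4% of all genes. It was Col3a1, at -2.39 ± 0.40 (edgeR adjusted p = 0.00642). Its knockout values rest on few reads, 7 and 10 counts with DI and 32 and 36 without. Without 1 library the difference ran from -2.65 to -2.13. With DI in wild-type cells 0 of 6 were called by edgeR or DESeq2, with 1 at an unadjusted p under 0.05 and a median of -0.0014. Of the 10 macrophage markers, Csf1r (-0.72) and Cd68 (-0.76) were lower and Cd14 (1.95) was higher in DI-treated knockout cells, and the list summed to 4930 to 5740 CPM there, against 5720 to 6420 CPM in DI-treated wild-type cells. Of 7 neutrophil markers tested S100a8 was lower (-0.74), with summed levels of 247 to 303 CPM in DI-treated knockout and 250 to 323 CPM in DI-treated wild-type cells. The S100a8 call was lost with total counts, in the 4 DI-treated libraries alone and with the A-rich trend removed (edgeR adjusted p = 0.0602, 0.0877 and 0.133). Its difference ran from -0.92 to -0.58 without 1 library. The calls of Csf1r, Cd68, Cd14 and Clec9a were not examined in this way, nor were those of the stromal markers other than Col3a1. Of 2 dendritic cell markers tested Clec9a was higher (2.06), with summed levels of 4.56 to 4.91 CPM in DI-treated knockout and 2.42 to 2.83 CPM in DI-treated wild-type cells. The part of these cell types in the genotype difference was not tested, and in these bulk libraries fewer cells of a type and less RNA per cell cannot be told apart.

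Untreated, none of the 10 members was called between knockout and wild-type cells by edgeR or DESeq2, where 0.0812% of all genes were called higher and 0.524% lower by edgeR. Slc39a7 and Slc39a10 had an unadjusted p under 0.05, with differences of -0.58 ± 0.26 and -0.80 ± 0.25. Mt1 differed by -0.44 ± 0.27 and Mt2 by -0.04 ± 0.34. Mt1, Mt2 and Slc30a1 each had overlapping untreated libraries.

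Of the other genes of both transporter families, edgeR called Slc30a6 and Slc39a8 in 1 or more comparisons. Of 6 other SLC30 exporter genes 2 were tested, and Slc30a2, Slc30a3 and Slc30a8 had no count. Neither tested gene was called with DI by edgeR or DESeq2, with 1 in wild-type and 0 in knockout cells at an unadjusted p under 0.05. In DI-treated cells Slc30a6, the partner of ZnT5, differed by -0.98 ± 0.29 between knockout and wild type (edgeR adjusted p = 0.0342). Slc30a9, the other gene tested, went the opposite way, at 1.04 ± 0.36, and was called by DESeq2 but not by edgeR (edgeR adjusted p = 0.0557). The call of Slc30a6 was lost in 6 alternatives, with adjusted p from 0.0529 to 0.192, among them those without DI-treated knockout replicate 1 or either DI-treated wild-type library. Of 11 other SLC39 importer genes 9 were tested, and 1 of the 9 was called with DI in each genotype. It was lower in wild-type cells, against 8.68% of all genes, and higher in knockout cells, against 4.49% of all genes.

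That gene was Slc39a8, which encodes ZIP8, an importer of zinc, manganese and iron, and it went opposite ways in the 2 genotypes. It had 62.7 and 38.4 CPM in DI-treated knockout libraries, against 17.7 and 16.7 CPM in untreated ones, a log2 change of 1.56 ± 0.26 (edgeR adjusted p = 0.00681). Wild-type libraries held 5.03 and 4.94 CPM with DI, against 11.6 and 13.8 CPM without, a log2 change of -1.35 ± 0.29 (edgeR adjusted p = 0.00858). The groups did not overlap in either genotype. The difference of the responses was 2.91 ± 0.39 (edgeR adjusted p = 0.00177). Single-genotype calls were lost without untreated knockout replicate 1 or 2 (adjusted p = 0.0633 or 0.0694) and without untreated wild-type replicate 2 or DI-treated wild-type replicate 2 (adjusted p = 0.0599 or 0.0619), while the difference of the responses passed without each library in turn.

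**Figure D4:**
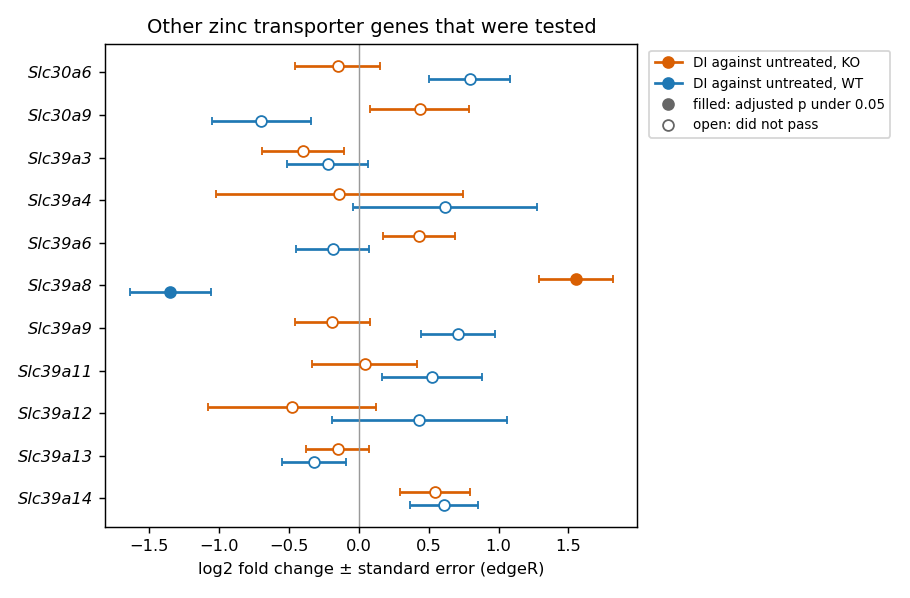
Log2 fold change ± standard error with DI of the 11 other zinc transporter genes that were tested, in knockout (KO, upper marker) and wild-type cells (WT, lower marker); filled markers passed at an edgeR adjusted p under 0.05. Slc39a8 is the one gene with filled markers, at 1.56 in knockout and -1.35 in wild-type cells.

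Other genes of metal handling were set beside the members. Of 5 further genes reported as targets of MTF1 or responsive to metals, 2 rose with DI in wild-type cells, against 6.51% of all genes. None was called by edgeR in knockout cells, where 4.49% of all genes were called higher and 4% lower. In knockout cells 2 of the 5 had an unadjusted p under 0.05 and DESeq2 called 1, Gclc. The rising genes were Gclc, the catalytic subunit of glutathione synthesis and also an NRF2 target, at 4.38 ± 0.27, and Fth1, the ferritin heavy chain, at 1.26 ± 0.23. Ndrg1, Csrp1 and Selenow did not pass in either genotype. Of 10 copper-handling genes 9 were tested, and 2 rose in wild-type cells, against 6.51% of all genes. These were the efflux pump Atp7a (0.84 ± 0.23) and the copper chaperone Atox1 (0.83 ± 0.22). Both calls were lost without either untreated wild-type library and without DI-treated wild-type replicate 1, with adjusted p from 0.0578 to 0.176, and that of Atp7a also without untreated knockout replicate 2 (adjusted p = 0.0563). DESeq2 also called Commd1, a gene of copper homeostasis, lower in wild-type cells, where edgeR gave -0.75 ± 0.24 (adjusted p = 0.0522). In knockout cells edgeR called 1 of the 9 higher and 0 lower, against 4.49% and 4% of all genes. The gene was Cox17, a mitochondrial copper chaperone, at 1.31 ± 0.35. DESeq2 called Cox17 and also Slc31a2, a copper transporter, which went the other way, at -0.97 ± 0.28 by edgeR (adjusted p = 0.0511). The edgeR call of Cox17 was lost without any 1 of the 4 untreated libraries and without DI-treated knockout replicate 1 (0.64, adjusted p = 0.314). Of 8 other genes of zinc binding or divalent metal transport 6 were tested, and 1 rose in wild-type cells, against 6.51% of all genes. This gene, Slc11a1, the phagosomal metal exporter NRAMP1, had 239 and 238 CPM in DI-treated wild-type libraries, against 70.6 and 73.8 CPM in untreated ones. That is a log2 change of 1.72 ± 0.22 (edgeR adjusted p = 0.000304). In knockout cells Slc11a1 had 25.9 and 31.7 CPM with DI and 39.9 and 35.2 CPM without and was not called.

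The genes whose profile over the 8 libraries was closest to that of Mt1 were found by the root mean square difference of log2 CPM centred on each gene's mean, among 7489 genes with a mean of at least 10 CPM. They were Ptgs2 (cyclooxygenase 2, difference 0.17), Gdf15 (a stress cytokine, 0.18), Hilpda (a lipid droplet protein, 0.28), the lectin Clec10a (0.29) and Tanc2 (0.30). Mt2 was closest to Ptgs2 (0.32), and Mt1 followed (0.36), with Gdf15, Nanos1 and the autophagy receptor Sqstm1 after it. Slc30a1 was closest to Pla2g4a, the cytosolic phospholipase A2 (0.22), followed by Tanc2, the co-chaperone Dnajb4, Oser1 and Sqstm1, at 0.24 to 0.26. These 3 members were also ranked from each other over all 11079 tested genes, without the limit of 10 CPM. From Mt2, Mt1 ranked 2nd and Slc30a1 18th, and from Mt1, Mt2 ranked 10th and Slc30a1 13th. From Slc30a1, Mt1 ranked 68th and Mt2 532nd. The 8 libraries hold only 4 conditions, so this likeness describes a shared order of groups.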

How the data were processed

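The deposited table holds whole-number counts without normalization, 1 row per Ensembl gene. STAR, HTSeq, DESeq2 and the build mm10 are named in the submitters' processing notes. Settings, strand handling and annotation release are not given in the sources used here. Per the labels' protocols, cDNA was primed with a barcoded oligo-dT primer, and no molecular identifier is described. Symbols and coordinates came from GENCODE M21 (GRCm38) for 21745 genes, and the other 420 held 0.129% of counts and stayed in. Genes were filtered with filterByExpr (minimum count 10), scaled by TMM and tested with edgeR 4.0.16 in R 4.3.3 (robust quasi-likelihood, all 8 libraries, 1 mean per group, Benjamini-Hochberg over 11079 genes), after a test on simulated data. DESeq2 1.42.0 was an alternative. All 10 members were named, with list genes that passed and the 5 genes nearest in profile (prior count 2). Members and lists were chosen with earlier results of these data known. Lists of other transporters, metallothioneins, metal-responsive, copper and divalent-metal genes and of cell type markers were counted. The A-rich trend, the highest number of A in 15 coding bases, was known for 10999 genes and entered as an offset. Within groups, log2 CPM correlated at 0.973 to 0.98 over genes, and the 2 libraries differed by more than counting error (chi-square 12.8 to 37.9 per degree of freedom).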

Additional observations from a re-analysis of the deposited data

Results flagged for a closer look

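Among the genes of metal handling and the markers, 6 genes had a response to DI that differed between genotypes. The test was that of the difference of responses (knockout minus wild type), which called 4.96% of all genes higher and 2.59% lower. None of the 6 is among the 10 members. The difference for Slc39a8, the importer ZIP8, was 2.91 on the log2 scale, higher in knockout cells. It was -3.58 for Gclc, -2.10 for Slc11a1, -1.42 for Atp7a and -1.23 for Fth1, all lower in knockout cells. The stromal collagen gene Col3a1 differed by -2.01. The calls of Atp7a, Fth1 and Col3a1 were lost without either untreated knockout library, without untreated wild-type replicate 2 or without DI-treated knockout replicate 1. Those of Atp7a and Col3a1 were also lost without DI-treated wild-type replicate 1, and that of Col3a1 without untreated wild-type replicate 1. Adjusted p in these fits ran from 0.0595 to 0.173. With the A-rich trend removed it was 0.0708 for Fth1 and 0.062 for Col3a1.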

How the results depend on the processing

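The wild-type increases of Mt1, Mt2 and Slc30a1 and the lower Mt1 of DI-treated knockout cells passed in every alternative run. Without 1 library the wild-type increases ran from 1.95 to 2.47 for Mt1, 2.41 to 3.25 for Mt2 and 1.71 to 2.09 for Slc30a1. Counts of called members were more sensitive, and so were calls over all genes. Without the filter and in DESeq2, more genes were called higher with DI in knockout cells than the 497 given above. For the difference of responses, more than 287 genes were called lower in both settings. Without untreated knockout replicate 1 or 2, calls with DI in knockout cells were scarce, as given above. Shifts in the member counts therefore cannot be read as specific to the members. With DI in knockout cells 5 rose without a filter on low counts and 5 in DESeq2, and 0 to 4 without 1 library. In the same comparison 0 fell with the replicate number as a block, 0 with the A-rich trend removed and 0 to 1 without 1 library. In wild-type cells 0 to 1 fell without 1 library. For the difference of responses 2 members were lower without a filter, 1 in DESeq2 and 0 to 1 without 1 library.

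The replicate block took away the call of Slc30a7 in knockout cells (adjusted p = 0.0511) and made that of Slc30a1 (adjusted p = 0.0381). Same-numbered libraries did not deviate together in every pair of groups (r = -0.0799 to 0.156), so the numbers were not taken as pairs. The cause of these changes was not tested.

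Differences near 0 that had not passed changed sign in some fits. With total counts in place of TMM, the difference of responses of Slc30a5 was 0.056 and Mt2 differed by 0.0079 between untreated genotypes. With the A-rich trend removed, Slc30a5 was 0.15 and Slc30a7 -0.030 with DI in wild type, Slc39a1 was 0.078 for the difference of responses, and Slc39a1 was 0.16 and Slc39a10 -0.11 between genotypes under DI. Without 1 library, DI in wild type ran from -0.35 to 0.27 for Slc30a5, -0.17 to 0.10 for Slc39a1, -0.075 to 0.42 for Slc39a7 and -0.025 to 0.35 for Slc30a7, and DI in knockout from -0.21 to 0.082 for Slc30a5. The difference of responses ran from -0.25 to 0.44 for Slc30a4, -0.34 to 0.28 for Slc30a5 and -0.025 to 1.22 for Mtf1. Between untreated genotypes the range was -0.42 to 0.42 for Mt2, -0.70 to 0.55 for Mtf1, -0.33 to 0.050 for Slc30a1 and -0.43 to 0.19 for Slc30a5. Under DI it was -0.40 to 0.14 for Slc39a1, -0.076 to 0.53 for Slc39a7 and -0.0029 to 0.35 for Slc39a10. RLE size factors and a minimum count of 50 changed no call of a member.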
